A study of Mus musculus with 9 samples.

Results

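The genes described here are 9 genes named for the mesothelium and for the urothelial plaque. Upk3b, Wt1, Msln, Lrrn4 and Gpm6a are markers of mesothelial cells, and Upk3a, Upk1a, Upk1b and Upk2 are the other uroplakins. They were taken as every probe set whose annotation gave one of these symbols and no other, which was 14 probe sets of 45101 on the array and 9 genes of the 18194 tested. Upk3b was chosen on its measured difference, since it had the most negative difference between ZsG plus cells and ZsG minus cTEC of all genes, and the remaining 8 were added by name, so the values of all 9 in that comparison are given as a description without a test.

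The mesothelium is the flat cell layer that lines the pleura, pericardium and peritoneum and covers the organs within them, the capsule of the thymus included where it faces the pleura. Its cells carry surface glycoproteins such as mesothelin and the uroplakin UPK3B, and in the embryo many of them depend on the transcription factor WT1. The urothelium of the bladder is a different epithelium, whose umbrella cells cover their free surface with plaques built from the tetraspanins UPK1A and UPK1B paired with UPK2 and UPK3A.

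The arrays came from a study of mice carrying ZsGreen (ZsG), a green fluorescent protein, placed at the start codon of Tslp on a bacterial artificial chromosome. Tslp encodes thymic stromal lymphopoietin, an epithelial cytokine. The 3 groups of 3 arrays were ZsG minus cTEC (reporter-negative cortical thymic epithelial cells), ZsG minus mTEC (reporter-negative medullary thymic epithelial cells) and ZsG plus cells, all on the C57BL/6 background, and the mice were between 8 and 20 weeks old. From each RNA sample 5 ng was amplified before labelling with biotin. The sort gates, whether ZsG plus cells were cortical or medullary, the number of mice behind an array and whether replicates came from separate mice are not stated in the labels, so a p-value here covers the spread among these arrays alone. The reporter is a transgene with its own insertion, and Tslp itself did not pass the test between any pair of groups. The labels call the cells of all 9 arrays keratinocytes. On every ZsG minus cTEC array 8 of 10 cTEC markers read higher than on the other 6 arrays, beside 5.08% of all genes. The same order held for 7 of 9 thymocyte genes and 6 of 14 fibroblast genes.

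Intensities were those deposited, on a linear scale on which the trimmed mean of each array was 1250. A level below is the geometric mean of 3 arrays with the SD of their log2 values, and a difference is on the log2 scale with its standard error. The highest reading of 12 bacterial control probe sets on the same array (phe and dap) served as a mark of background. In ZsG minus cTEC it lay between 128 and 241, in ZsG minus mTEC between 117 and 139, and in ZsG plus between 155 and 341. ZsG plus arrays were also dimmer, with medians of 230 to 316 against 366 to 424 in the other groups. They had 43.0% to 61.3% of probe sets above that mark against 58.7% to 76.1%. Their Gapdh 3' to 5' ratios were 6.71 to 10.6 against 4.55 to 5.97, and the median SD of a gene was 1.30 log2 units against 0.61 in ZsG minus cTEC and 0.63 in ZsG minus mTEC. The part of these array differences in the results below was not tested. The fit used 1 spread for all groups, which is narrower than the spread of ZsG plus.

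RefSeq promoters on the GRCm38.p6 build were found for 5 of the 9 genes, 6 promoters in all, and were read over the 250 bases before the gene's start. No promoter was found for Upk1b, Upk2 or the mesothelial genes Wt1 and Msln, so these genes were not read. The 3 promoters printed, of Upk3b, Lrrn4 and Gpm6a, are those that hold GGAATG, the core that TEAD factors are known to recognise. Capitals mark GGAATG or, where it lies on the opposite strand, its complement CATTCC.
Upk3b, chr5:136038246-136038495, plus strand: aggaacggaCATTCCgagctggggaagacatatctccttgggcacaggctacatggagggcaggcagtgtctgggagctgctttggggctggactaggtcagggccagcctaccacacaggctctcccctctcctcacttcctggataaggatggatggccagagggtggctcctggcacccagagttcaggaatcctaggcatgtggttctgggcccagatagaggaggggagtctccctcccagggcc
Lrrn4, chr2:132880863-132881112, minus strand: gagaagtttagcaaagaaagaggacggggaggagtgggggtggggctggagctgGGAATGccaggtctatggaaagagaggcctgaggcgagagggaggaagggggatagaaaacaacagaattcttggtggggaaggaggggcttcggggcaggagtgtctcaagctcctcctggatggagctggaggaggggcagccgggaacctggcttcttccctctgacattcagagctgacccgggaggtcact
Gpm6a, chr8:54779184-54779433, plus strand: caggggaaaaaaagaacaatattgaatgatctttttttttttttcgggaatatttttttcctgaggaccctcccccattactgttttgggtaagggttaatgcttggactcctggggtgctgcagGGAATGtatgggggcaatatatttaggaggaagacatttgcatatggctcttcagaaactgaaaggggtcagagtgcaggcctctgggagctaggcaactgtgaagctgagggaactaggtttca
Among all 32851 promoters of the same length, 12.6% hold GGAATG on either strand. The promoters of Upk3a and Upk1a and the second promoter of Gpm6a have no match. GATAA, the GATA core, was found in 2 of the 6 promoters (Upk3b and Upk3a) against 22.6% of all, and GTGGGNG, a WT1-like motif, in 2 (Upk1a and Lrrn4) against 28.1%. The motifs were chosen after the sequences were seen, and a match describes letters only.

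Upk3b encodes uroplakin 3B, a single-pass membrane protein of the mesothelial surface. Its brighter probe set read 8151, 4656 and 8631 on the ZsG minus cTEC arrays. It read 445, 1164 and 597 on the ZsG minus mTEC arrays. On the ZsG plus arrays it read 53.6, 22.7 and 23.0. The groups do not overlap, and every ZsG plus reading lay under the bacterial controls of its array. The levels were 6893 ± 0.49, 677 ± 0.71 and 30.4 ± 0.71 (SD of log2, n = 3 each), in the order ZsG minus cTEC, ZsG minus mTEC, ZsG plus.

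From ZsG minus cTEC to ZsG plus the measured difference of Upk3b was -7.83 ± 0.63. That is a difference of the brighter probe set, whose ZsG plus readings are under background. For that probe set it is given as at least 27.2-fold lower, counted against the controls of the ZsG plus arrays. The geometric mean of those controls was 253. From ZsG minus mTEC to ZsG plus, Upk3b fell by 4.48 ± 0.63 (limma, adjusted p = 0.0409), or by at least 2.67-fold on the same count. That call was lost in 12 of 19 alternatives, among them a fit of the 6 arrays compared (adjusted p = 0.187 with limma), the replicate block (adjusted p = 0.137) and the omission of any 1 ZsG minus cTEC or ZsG minus mTEC array (adjusted p from 0.0767 to 0.176). Between ZsG minus mTEC and ZsG minus cTEC the difference was -3.35 ± 0.63 and did not pass (limma, adjusted p = 0.0585). It lay between -3.74 and -3.05 over 19 alternatives and passed in 8 of them, with adjusted p from 0.00729 to 0.208. Both of these comparisons share 3 arrays with the one that chose Upk3b.

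A second Upk3b probe set did not give the same order. It read 1622, 880 and 2167 in ZsG minus cTEC. In ZsG minus mTEC it read 286, 25.5 and 94.9. In ZsG plus it read 840, 83.2 and 45.5. Its ZsG minus cTEC arrays were the 3 highest, as for the brighter probe set, but ZsG minus mTEC and ZsG plus overlapped and ZsG plus replicate 1 lay close to the lowest ZsG minus cTEC array. The differences of this probe set were -4.04 ± 1.20 for ZsG minus mTEC against ZsG minus cTEC, 0.73 ± 1.20 for ZsG plus against ZsG minus mTEC, and -3.31 ± 1.20 for ZsG plus against ZsG minus cTEC. The fold bounds above are those of the brighter probe set. On the second, ZsG plus replicate 1 lay above the controls of its array. With both probe sets averaged, the ZsG plus level of Upk3b differed from that of ZsG minus mTEC by -1.87 (adjusted p = 0.302 in limma).

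**Figure D1:**
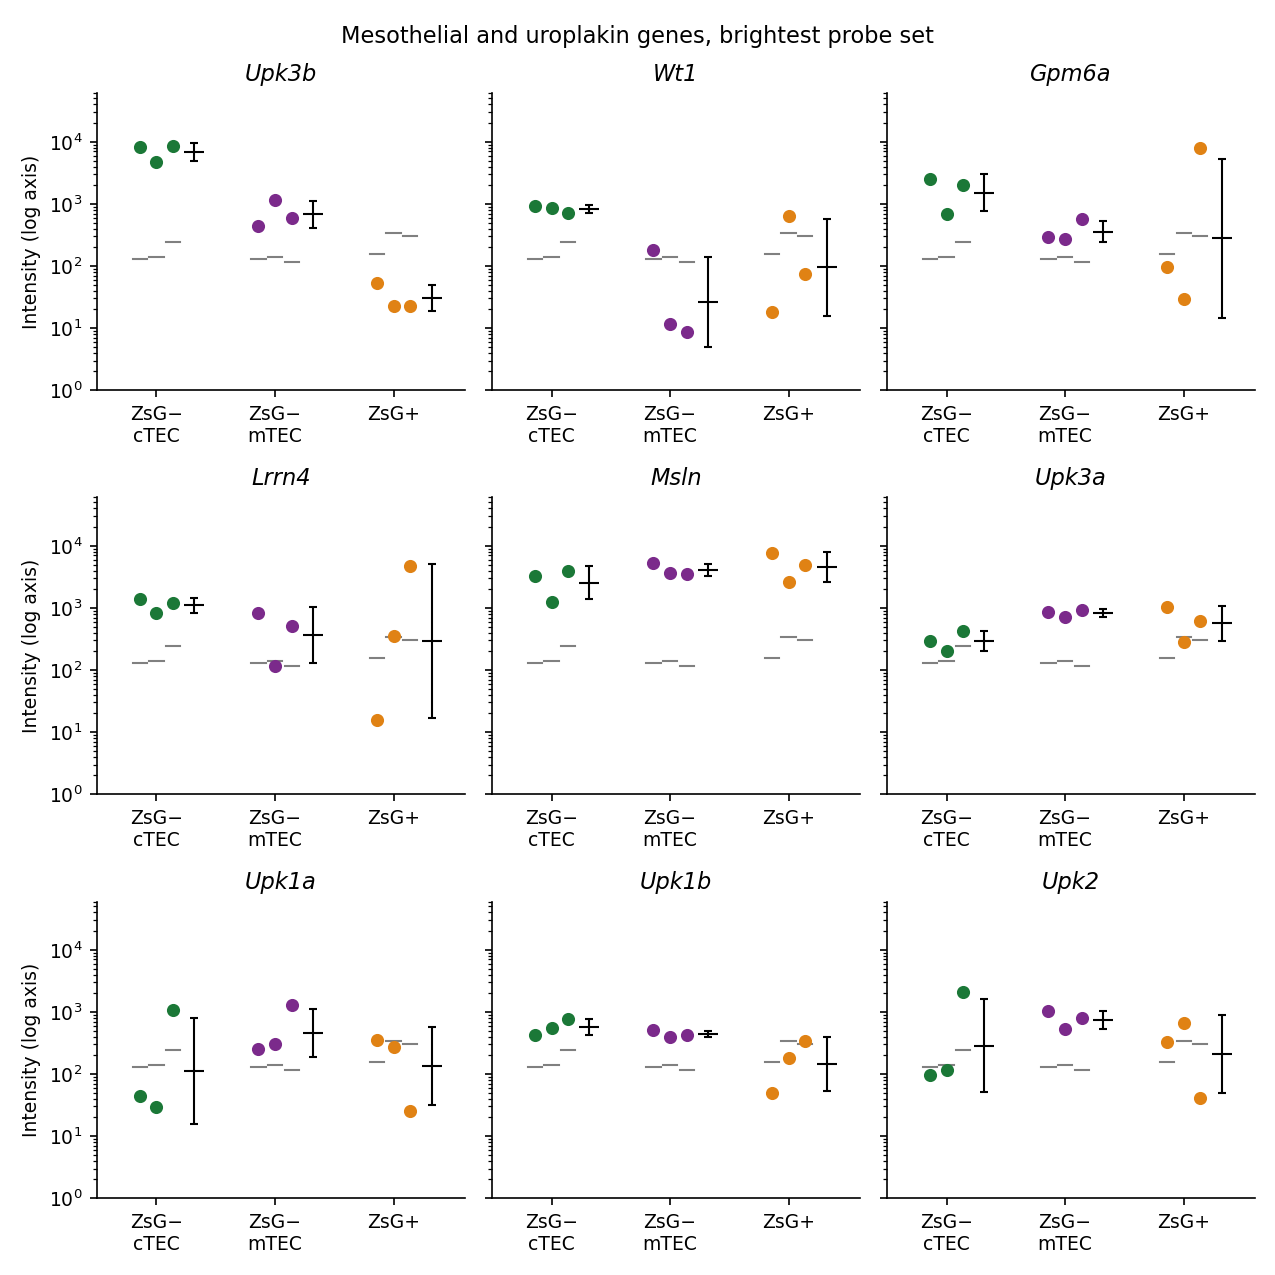
Intensity (log axis) of the brightest probe set of each of the 9 genes on every array, replicates 1 to 3 from left to right in each group, with the geometric mean and the SD of log2 as a black bar and the highest bacterial control of each array as a grey tick. Upk3b falls into 3 separate groups at levels of 6893, 677 and 30.4, while Msln lies above the controls on all 9 arrays.

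Wt1 encodes the Wilms tumour zinc finger transcription factor, a marker of mesothelial cells and of kidney podocytes. It read 914, 866 and 704 on the ZsG minus cTEC arrays. It read 182, 11.4 and 8.8 in ZsG minus mTEC. The ZsG plus arrays read 18.3, 632 and 73.6. The 3 ZsG minus cTEC arrays were the highest of the 9 and agreed closely (level 823 ± 0.20), while in each of the other groups 1 array was above the bacterial controls and the others under them (26.4 ± 2.42 in ZsG minus mTEC and 94.8 ± 2.58 in ZsG plus). The difference between ZsG minus mTEC and ZsG minus cTEC was -4.96 ± 1.42 and did not pass (limma, adjusted p = 0.170). It passed in 1 of 18 alternatives, with array weights (-5.21, adjusted p = 0.0240). ZsG plus differed from ZsG minus mTEC by 1.85 ± 1.42 (limma, adjusted p = 0.588) and from ZsG minus cTEC by -3.12 ± 1.42.

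Gpm6a encodes glycoprotein M6A, a membrane protein known from neurons that mesothelial cells also carry. Its brighter probe set read 2512, 684 and 2022 in ZsG minus cTEC. It read 294, 276 and 562 in ZsG minus mTEC. The ZsG plus arrays read 95, 29.3 and 7818, so that replicate 3 was the highest of all 9 arrays and the other ZsG plus arrays the lowest. The differences did not pass, with -2.08 ± 1.73 for ZsG minus mTEC against ZsG minus cTEC (limma, adjusted p = 0.754) and -0.36 ± 1.73 for ZsG plus against ZsG minus mTEC (adjusted p = 0.947), the latter between -2.76 and 1.27 with 1 array left out. ZsG plus differed from ZsG minus cTEC by -2.44 ± 1.73, and by -4.84 without ZsG plus replicate 3.

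The second Gpm6a probe set separated all 3 groups in the order seen for Upk3b. It read 2938, 2499 and 2929 in ZsG minus cTEC. It read 562, 488 and 859 in ZsG minus mTEC. In ZsG plus it read 60.7, 84.6 and 7.87, all under the bacterial controls. The array on which the 2 probe sets differ most is ZsG plus replicate 3, at 7818 against 7.87. The differences of the second probe set were -2.17 ± 0.88 for ZsG minus mTEC against ZsG minus cTEC, -4.17 ± 0.88 for ZsG plus against ZsG minus mTEC and -6.34 ± 0.88 for ZsG plus against ZsG minus cTEC. Against the controls, the last 2 are at least 2.44-fold and at least 11.0-fold lower. Which of the 2 probe sets follows the Gpm6a transcript was not tested.

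**Figure D2:**
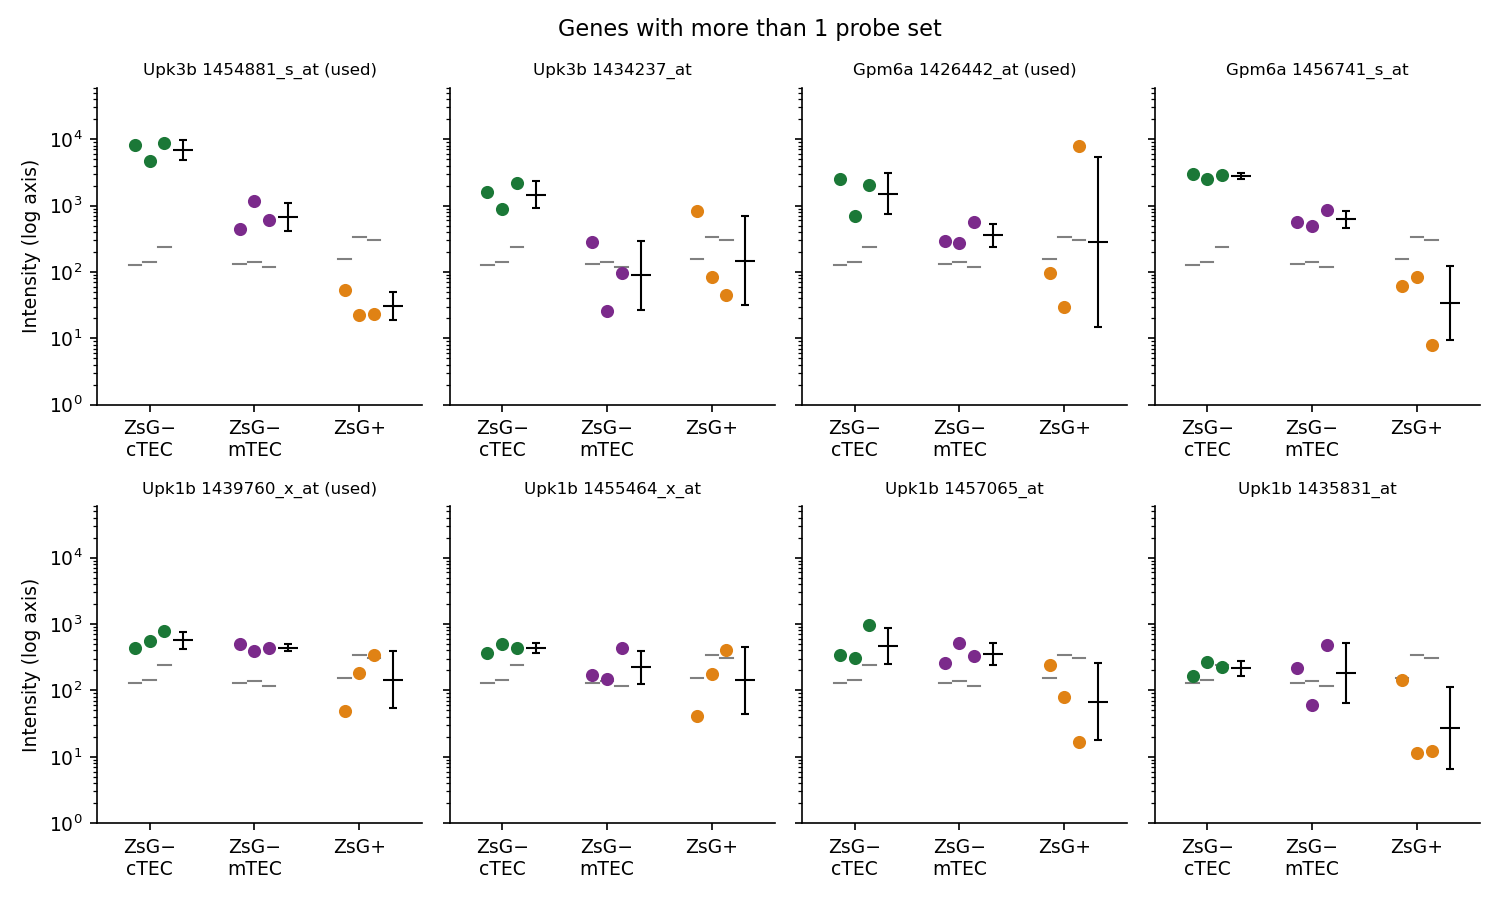
Intensity (log axis) on every array of each probe set of Upk3b, Gpm6a and Upk1b, the 3 genes with more than 1 probe set, drawn with the same bars and grey ticks as the levels of all 9 genes. The 2 Upk3b probe sets part in ZsG minus mTEC and ZsG plus, the 2 Gpm6a probe sets part on ZsG plus replicate 3, and each of the 4 Upk1b probe sets has its lowest mean in ZsG plus.

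Lrrn4 encodes a leucine-rich repeat neuronal protein that also marks mesothelial cells. It read 1389, 814 and 1192 in ZsG minus cTEC. It read 823, 114 and 514 in ZsG minus mTEC. ZsG plus ran from 15.4 and 351 to 4682, wider than both other groups, and all 3 groups overlap. The differences were -1.60 ± 1.73 for ZsG minus mTEC against ZsG minus cTEC (limma, adjusted p = 0.831), -0.31 ± 1.73 for ZsG plus against ZsG minus mTEC (adjusted p = 0.955) and -1.91 ± 1.73 for ZsG plus against ZsG minus cTEC. The last 2 had no settled sign. With 1 array left out, the difference from ZsG minus mTEC lay between -2.31 and 1.82, and that from ZsG minus cTEC reached 0.21. On ZsG plus replicate 3 Lrrn4 and the brighter Gpm6a probe set were both at their highest, while Upk3b and Wt1 were under the bacterial controls there.

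Msln encodes mesothelin, a GPI-anchored surface glycoprotein of mesothelial cells that binds the mucin MUC16. Its readings were 3257, 1264 and 3990 in ZsG minus cTEC. They were 5335, 3650 and 3550 in ZsG minus mTEC. They were 7622, 2566 and 4961 in ZsG plus. All 9 arrays were above the controls, at the 91.1st percentile of mean log2 intensity over all probe sets, and the 3 groups overlap. The readings were not ordered as those of Upk3b, with differences of 0.69 ± 0.66 for ZsG minus mTEC against ZsG minus cTEC (limma, adjusted p = 0.798), 0.16 ± 0.66 for ZsG plus against ZsG minus mTEC (adjusted p = 0.936) and 0.85 ± 0.66 for ZsG plus against ZsG minus cTEC. The second of these lay between -0.20 and 0.58 with 1 array left out.

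Upk3a encodes the uroplakin that pairs with UPK1B in the plaques of the bladder. It read 289, 199 and 418 in ZsG minus cTEC. It read 871, 707 and 929 in ZsG minus mTEC, above every ZsG minus cTEC array. ZsG plus, at 1036, 287 and 623, overlapped both. The difference between ZsG minus mTEC and ZsG minus cTEC was 1.52 ± 0.63, opposite in sign to that of Upk3b, and did not pass (limma, adjusted p = 0.359). ZsG plus differed by -0.54 ± 0.63 from ZsG minus mTEC (limma, adjusted p = 0.726) and by 0.98 ± 0.63 from ZsG minus cTEC.

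Upk1b, the tetraspanin partner of UPK3A, is also found in other epithelia than the bladder. Its brightest probe set read 431, 555 and 772 in ZsG minus cTEC. It read 506, 395 and 432 in ZsG minus mTEC, and these groups overlap. It read 49.1, 183 and 339 in ZsG plus, below every array of the other groups, and of these only replicate 3 was above its bacterial controls. The differences were -0.37 ± 0.74 for ZsG minus mTEC against ZsG minus cTEC (limma, adjusted p = 0.941), -1.61 ± 0.74 for ZsG plus against ZsG minus mTEC (adjusted p = 0.387) and -1.97 ± 0.74 for ZsG plus against ZsG minus cTEC. Its other 3 probe sets had the same sign in all 3 comparisons, and for ZsG plus against ZsG minus cTEC the 4 probe sets lay between -2.97 and -1.60. Within ZsG plus they did not order the arrays alike, with replicate 1 the lowest in the brightest probe set and the highest in 2 of the others. A probe set that read 40.5, 176 and 406 in ZsG plus overlapped both other groups there. The dimmest probe set, under the controls on every ZsG plus array, overlapped ZsG minus mTEC.

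Upk1a and Upk2 encode the partners of the other plaque pair. Upk1a read 44.4, 29.8 and 1082 in ZsG minus cTEC, 252, 299 and 1289 in ZsG minus mTEC, and 352, 270 and 25.1 in ZsG plus. Upk2 read 97.9, 117 and 2077 in ZsG minus cTEC, 1027, 526 and 784 in ZsG minus mTEC, and 332, 658 and 40.9 in ZsG plus. Both genes were high on ZsG minus cTEC replicate 3 alone in that group and at their lowest of the ZsG plus arrays on replicate 3, and the groups overlap for both. For ZsG minus mTEC against ZsG minus cTEC, Upk1a differed by 2.03 ± 1.50 (limma, adjusted p = 0.697) and Upk2 by 1.39 ± 1.33 (adjusted p = 0.798). For ZsG plus against ZsG minus mTEC the differences were -1.78 ± 1.50 (limma, adjusted p = 0.623) and -1.86 ± 1.33 (adjusted p = 0.562). For ZsG plus against ZsG minus cTEC they were 0.25 ± 1.50 and -0.47 ± 1.33, neither with a settled sign. With 1 array left out, that of Upk1a lay between -0.71 and 1.88 and that of Upk2 between -1.30 and 0.96.

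**Figure D3:**
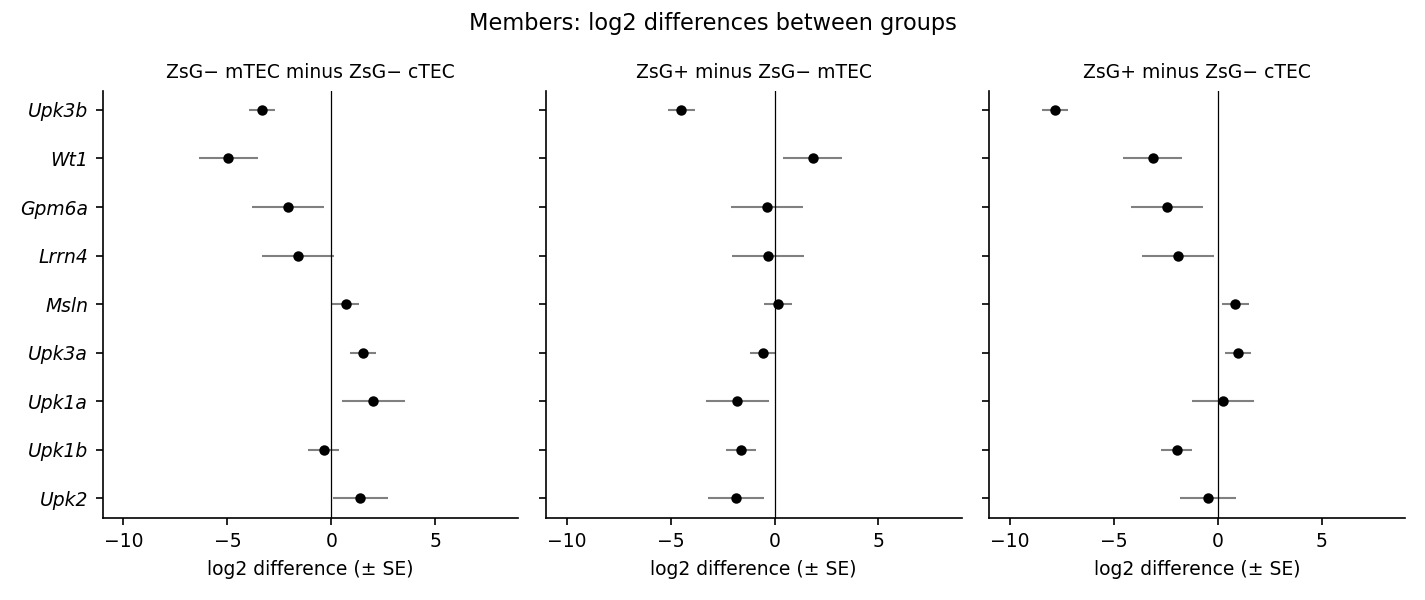
Difference of group means (log2, with the standard error) of the brightest probe set of each of the 9 genes, 1 panel per comparison. Upk3b is the lowest point in both ZsG plus panels (-4.48 and -7.83), and in the panel of ZsG minus mTEC against ZsG minus cTEC 4 genes are above 0 and 5 below.

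Counts over the 9 genes were taken on the brightest probe set of each. None passed the test between ZsG minus mTEC and ZsG minus cTEC in limma, against 0.627% of all genes tested. At an unadjusted p under 0.05, 1 was higher in ZsG minus mTEC and 2 lower, against 8.4% and 3.9% of all genes. The groups did not overlap for 3 genes that read lower in ZsG minus mTEC (Upk3b, Wt1 and Gpm6a) and 1 that read higher (Upk3a), against 11.8% and 16.6% of all genes. From ZsG minus mTEC to ZsG plus 1 gene of 9 passed (Upk3b), beside 0.22% of all genes. The ZsG plus readings that chose Upk3b also enter this comparison, and its ZsG minus cTEC readings enter the one before. Nothing is therefore read from the place of Upk3b in these counts. From ZsG minus mTEC to ZsG plus 1 was lower and none higher at an unadjusted p under 0.05, against 10.2% and 3.2%. Without overlap 2 genes read lower in ZsG plus (Upk3b and Upk1b) and none higher, against 12.3% and 5.77%. In the comparison that chose Upk3b, the choice itself put 1 gene of 9 (Upk3b) past the threshold, beside 1.74% of all genes, and nothing is read from that count. There 3 read lower without overlap (Upk3b, Upk1b and Wt1) and none higher beside 13.4% and 9.9%. The medians of the 9 differences were -0.37, -0.54 and -1.91 for ZsG minus mTEC against ZsG minus cTEC, ZsG plus against ZsG minus mTEC and ZsG plus against ZsG minus cTEC, where the medians of all genes were 0.09, -0.33 and -0.14. With each array centred on its median, the medians of all genes became 0.10, 0.21 and 0.40.

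A list of 18 further mesothelial genes, of which 17 were measured, gave more genes that were brightest in ZsG minus cTEC. The list was chosen with earlier results of these data known, so its counts are a description. For 10 of the 17 (Muc16, Bnc1, Bnc2, Cldn15, Aldh1a2, Nkain4, Igfbp6, Efemp1, Gata6 and Podxl), and for 2 of the 9 genes above (Upk3b and Wt1), all 3 ZsG minus cTEC arrays read above the other 6 arrays, against 5.08% of all genes. That order was not particular to mesothelial genes. It also held for 6 of 14 fibroblast genes, 7 of 9 thymocyte genes and 8 of 10 cTEC genes. From ZsG minus cTEC to ZsG plus, the comparison that chose Upk3b, 3 of the 17 were past the threshold. All 3 were lower in ZsG plus, beside 1.74% of all genes in either direction. They are Muc16, the mucin known as CA125 and the ligand of mesothelin, Bnc2, which encodes the zinc finger protein basonuclin 2, and Nkain4, which encodes a membrane protein that binds the sodium pump. The median of the list was -2.23 there, and 11 of the 17 were lower in ZsG plus without overlap, against 13.4% of all genes. At an unadjusted p under 0.05, 11 were lower and 1 higher, against 11.3% and 7.44% of all genes.

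Muc16 read 950, 628 and 1530 in ZsG minus cTEC. It read 66.3, 195 and 274 in ZsG minus mTEC, and 94.1, 33.4 and 51.2 in ZsG plus. ZsG plus and ZsG minus mTEC overlap, and both lie under every ZsG minus cTEC array. Muc16 fell by 4.16 ± 0.72 from ZsG minus cTEC to ZsG plus (limma, adjusted p = 0.0350), a call that was lost in 9 of 19 alternatives.

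Bnc2 read 1920, 1351 and 3325 in ZsG minus cTEC. It read 95.9, 567 and 214 in ZsG minus mTEC and 58.3, 131 and 62.6 in ZsG plus. Here too the ZsG minus cTEC arrays stand above all others. Bnc2 fell by 4.71 ± 0.76 (limma, adjusted p = 0.0273) and Nkain4 by 3.33 ± 0.61 (adjusted p = 0.0380) from ZsG minus cTEC to ZsG plus. Their calls were lost in 7 of 19 and 11 of 18 alternatives, and those of all 3 genes were lost when any 1 ZsG minus cTEC array was left out (adjusted p from 0.0905 to 0.142) and in the replicate block (adjusted p from 0.0738 to 0.0907). Leaving out 1 ZsG minus mTEC array also ended the call of Nkain4 (any array), Muc16 (replicate 2 or 3) and Bnc2 (replicate 3), with adjusted p from 0.0595 to 0.0750. As all ZsG plus readings of the 3 genes were under the bacterial controls, the bounds are at least 3.83-fold for Muc16, 8.09-fold for Bnc2 and 1.77-fold for Nkain4.

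Between ZsG minus mTEC and ZsG minus cTEC no gene of that list fell past the threshold of the limma fit, 8 were lower at an unadjusted p under 0.05 (3.9% of all genes), and 12 were lower without overlap (11.8% of all genes), with a median of -1.46. The one gene that passed was higher in ZsG minus mTEC. It was Calb2, which encodes the calcium-binding protein calretinin, with 95.1, 150 and 25.6 in ZsG minus cTEC, 1452, 1257 and 4135 in ZsG minus mTEC and 634, 242 and 508 in ZsG plus. Calb2 rose by 4.78 ± 0.82 (limma, adjusted p = 0.0475), while 14 of the 17 differences were below 0, and its call was lost in 9 of 19 alternatives, with each of the 6 arrays compared left out in turn and in the replicate block (adjusted p = 0.121). Aldh1a2, the retinaldehyde dehydrogenase that makes retinoic acid, and Igfbp6, an insulin-like growth factor binding protein, were the brightest genes of the list that did not pass. Aldh1a2 read 3843, 2905 and 3242 in ZsG minus cTEC, 1387, 882 and 1422 in ZsG minus mTEC and 25.2, 762 and 27.8 in ZsG plus. Its ZsG plus level differed from that of ZsG minus cTEC by -5.35 ± 1.17 (adjusted p = 0.0581 in limma). Igfbp6 differed there by -2.23 ± 0.86 (adjusted p = 0.209 in limma). In ZsG plus against ZsG minus mTEC no gene of the list passed in limma, 1 was higher and 3 were lower at an unadjusted p under 0.05 (3.2% and 10.2% of all genes), and the median was -0.52.

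**Figure D4:**
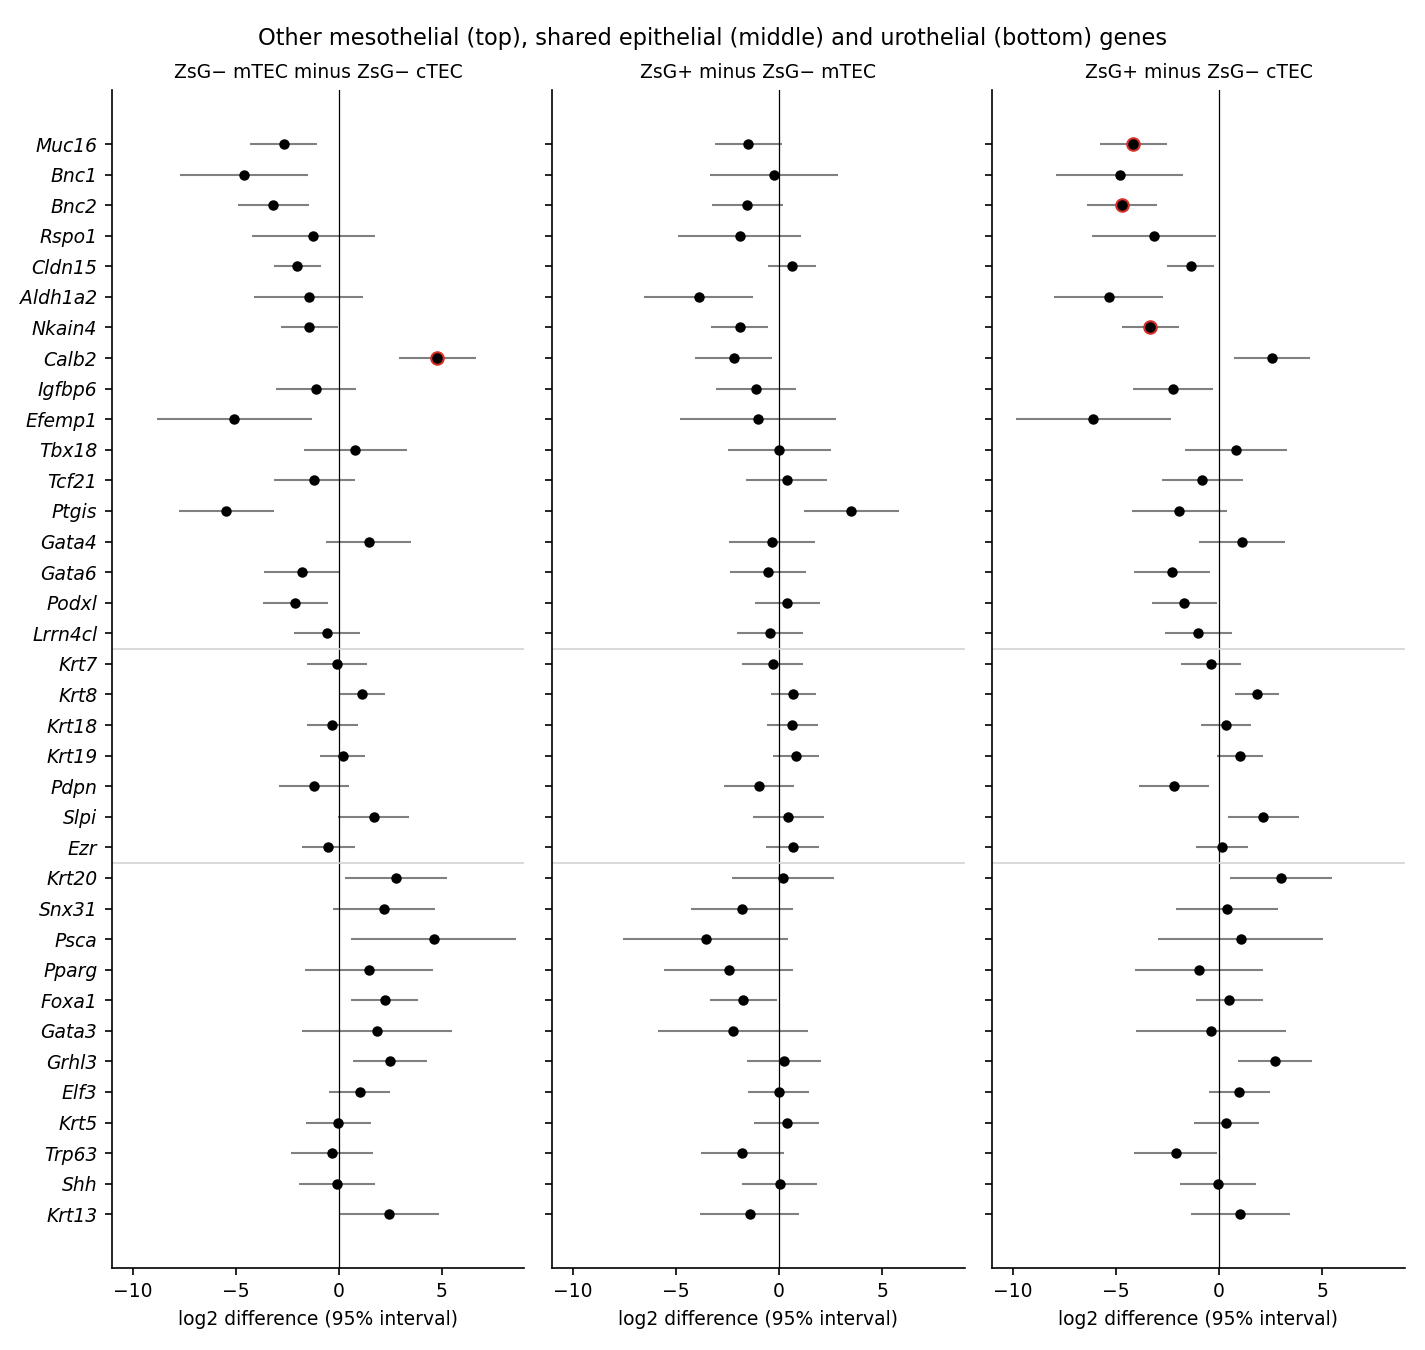
Difference of group means (log2, with the 95% interval) of the 17 further mesothelial genes (top), 7 mesothelial genes shared with other epithelia (middle) and 12 urothelial genes (bottom), 1 panel per comparison, with a red ring where the adjusted p was below 0.05. In the panel of ZsG plus against ZsG minus cTEC the rings are on Bnc2, Muc16 and Nkain4, and in that of ZsG minus mTEC against ZsG minus cTEC on Calb2.

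A list of 12 urothelial genes, also chosen with earlier results of these data known, had a median of 2.02 between ZsG minus mTEC and ZsG minus cTEC. None passed in limma. At an unadjusted p under 0.05, 5 were higher in ZsG minus mTEC (8.4% of all genes) and none lower (3.9%), and 5 were higher without overlap (16.6% of all genes). Psca, which encodes prostate stem cell antigen, a GPI-anchored protein of urothelium and other epithelia, read 537, 518 and 293 in ZsG minus cTEC and 13535, 8128 and 10520 in ZsG minus mTEC. On the ZsG plus arrays it read 8495, 3307 and 26.2, with replicate 3 under the controls as for Upk1a and Upk2. Its difference between ZsG minus mTEC and ZsG minus cTEC was 4.60 ± 1.78 (limma, adjusted p = 0.320). In the same comparison Foxa1, a forkhead transcription factor of urothelial differentiation, differed by 2.22 ± 0.72 (adjusted p = 0.223). The brightest genes of the list, Krt5 and Trp63, differed there by -0.03 ± 0.70 and -0.32 ± 0.89 (limma, adjusted p = 0.997 and 0.966). Of the 12 differences 9 were above 0 and 3 below. The medians of the list were -1.57 for ZsG plus against ZsG minus mTEC and 0.44 for ZsG plus against ZsG minus cTEC, where none passed in limma either. At an unadjusted p under 0.05, 1 was lower in the first (10.2% of all genes). In the second 2 were higher and 1 lower (7.44% and 11.3% of all genes). The genes of this list are shared with other epithelia, and Krt5, a keratin of basal epithelial cells, also stands in the list of medullary markers.

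Among 7 mesothelial genes that other epithelia also carry, none passed in any of the 3 comparisons in limma. At an unadjusted p under 0.05, 1 was higher in ZsG minus mTEC than in ZsG minus cTEC (8.4% of all genes). From ZsG minus cTEC to ZsG plus 2 were higher and 1 lower (7.44% and 11.3% of all genes). All 7 shared genes were above the bacterial controls on all 9 arrays. The brightest, Krt18, a simple epithelial keratin, differed by -0.31 ± 0.54 between ZsG minus mTEC and ZsG minus cTEC (limma, adjusted p = 0.926). Of the relatives of the 9 genes, 5 were measured and none passed in limma. At an unadjusted p under 0.05, none was higher or lower in ZsG minus mTEC than in ZsG minus cTEC (8.4% and 3.9% of all genes). In ZsG plus 2 were lower than in ZsG minus mTEC and none higher (10.2% and 3.2% of all genes). Against ZsG minus cTEC 1 was lower in ZsG plus and none higher (11.3% and 7.44% of all genes). Upk3bl, the closest relative of Upk3b by name, was dim, at levels of 91.2 in ZsG minus cTEC, 54.2 in ZsG minus mTEC and 37.7 in ZsG plus. Gpm6b, the paralogue of Gpm6a, differed in ZsG plus from ZsG minus cTEC by -4.68 ± 1.01 on its brightest probe set (adjusted p = 0.0554 in limma). Of its 3 probe sets 2 had that sign.

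Markers of other cells moved with the same groups. The summed intensity of the 17 further mesothelial genes was from 14190 to 22835 in ZsG minus cTEC, from 5450 to 9660 in ZsG minus mTEC and from 3937 to 5937 in ZsG plus, and 13 to 15, 10 to 13 and 4 to 7 of them were above the controls. That of 14 fibroblast genes was 83337 to 103155, 28069 to 31141 and 31673 to 58626 in the same order. On every ZsG minus cTEC array 6 of the 14 (Col3a1, Dcn, Thy1, Fstl1, Mfap5 and Serpinf1) were higher than on the other 6 arrays. Thy1 read 12785, 8748 and 13896 in ZsG minus cTEC, and which cells it came from was not tested. The sum of 9 thymocyte genes was 41392 to 56203, 5017 to 8867 and 4218 to 7741, with 7 of 9 so ordered. Of all genes, 5.08% had that order. Fibroblast and thymocyte sums did not overlap between ZsG minus cTEC and the other groups, as the mesothelial sum did not. The sums of 8 endothelial genes overlapped, at 2489 to 2835, 2189 to 2908 and 1639 to 5170. Those of 7 smooth muscle and pericyte genes were lowest in ZsG minus cTEC, at 9654 to 16841, 30171 to 35848 and 22348 to 36651. Within that list Rgs5 had levels of 2558, 19220 and 18070 in the same order, and the sums without it were not taken. Tagln went the other way, at 2353, 338 and 49.4, and was the 1 gene of the 7 highest on every ZsG minus cTEC array. The sums of the epithelial markers were 267249 to 335781, 62712 to 87974 and 54173 to 90891 for 10 cTEC genes and 24758 to 32015, 82631 to 95444 and 64734 to 114416 for 9 mTEC genes. In the order ZsG minus cTEC, ZsG minus mTEC, ZsG plus, 12 to 14, 11 to 14 and 9 to 11 of the fibroblast genes were above the controls. Of the thymocyte genes 8 to 9, 7 to 8 and 2 to 7 were above them. The part of fibroblasts and thymocytes in the values of Upk3b, Wt1 and the other mesothelial genes was not tested. In these bulk samples fewer cells of a type and less RNA per cell cannot be told apart.

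The 5 genes whose pattern over the 9 arrays was nearest to that of the brighter Upk3b probe set were Gas1, Cd48, Lpar1, Pkhd1l1 and Tagln. Likeness was the root mean square difference of log2 values centred per gene, 0.65 for Gas1, 0.99 for Cd48, 1.01 for Lpar1, 1.05 for Pkhd1l1 and 1.07 for Tagln, where the median over 18193 genes was 3.37. Gas1, which encodes a GPI-anchored co-receptor of hedgehog ligands, read 7417, 5094 and 7159 in ZsG minus cTEC, 1037, 1587 and 721 in ZsG minus mTEC and 127, 12.2 and 22.2 in ZsG plus. Cd48 encodes a surface receptor of leukocytes, Lpar1 a receptor for lysophosphatidic acid and Tagln a smooth muscle actin-binding protein. Each gene was ranked by its brightest probe set alone. On that ranking markers of other cells were nearer than any mesothelial gene listed. They were the cTEC genes Pax1 at rank 9 (1.18), Enpep at rank 19 (1.37) and Prss16 at rank 30 (1.46), and the thymocyte gene Dntt at rank 29 (1.46). The nearest mesothelial genes were Bnc2 at rank 46 (1.57) and Muc16 at rank 65 (1.66). Of the genes chosen with Upk3b the nearest on that ranking was Upk1b at rank 1867 (2.64). Gpm6a (6841), Wt1 (9320), Upk2 (9632), Lrrn4 (10827), Msln (11757), Upk3a (12303) and Upk1a (13277) followed. The rank of Gpm6a rests on its brighter probe set, which read 7818 on ZsG plus replicate 3. Its second probe set, which separated the groups in the order seen for Upk3b, was not ranked. The 9 arrays are shared by all these measures, so the ranks are a description.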

How the data were processed

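Gene expression was measured on 9 arrays. The authors deposited linear intensities per probe set, which the files show scaled to a 2% trimmed mean of 1250; the software behind them is not given in the sources used here. Probe sets were named through the platform annotation (34958 with 1 symbol, 932 with several and 9211 with none, the last 2 left out). Intensities were converted to log2, the brightest probe set of each gene was kept, and limma 3.58.1 in R 4.3.3 was fitted to all 9 arrays with 1 coefficient per group and 3 comparisons, two-sided, with Benjamini-Hochberg adjustment over 18194 genes and a threshold of 0.05. The script was tested on simulated data. Figures used matplotlib 3.10.9. No 2 arrays held identical values, and their number limits the precision.

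The members and lists were chosen with earlier results of these data known. The rule for named genes covered all members with all probe sets and up to 4 genes per list and direction past the threshold. It also covered up to 2 of the brightest not past it, and the 5 genes most like Upk3b. Psca and Foxa1 were named outside that rule. Between ZsG minus mTEC and ZsG minus cTEC they had larger differences than Krt5 and Trp63, the brightest of their list. Some genes of other lists were also named outside it. Lists of other cell types, paralogues and shared markers are mostly given by count. The 6 listed symbols without a match were not analysed here. The alternatives were the mean of probe sets, all probe sets, a filter at the 40th percentile, a floor of 100, an offset of 50, quantile normalization, median centring, a fit of the 6 arrays compared, array weights, the replicate block and leaving out each array.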

Additional observations from a re-analysis of the deposited data

How the results depend on the processing

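Counts past the threshold of limma moved with most settings, and the cause was not tested. Between ZsG minus mTEC and ZsG minus cTEC 114 genes passed. The count was 216 with averaged probe sets, 425 with a floor of 100, 334 with an offset of 50, 178 after quantile normalization, 71 after median centring, 548 in a fit of the 6 arrays compared, 1220 with array weights and 43 over all probe sets. Between ZsG plus and ZsG minus mTEC 40 genes passed, against 26 above the 40th percentile, 202 with the floor, 101 with the offset, 15 after quantile normalization, 3 after centring, 82 over all probe sets, and 0 in the fit of 6 arrays and with array weights (1785 and 1705 at an unadjusted p under 0.05). Between ZsG plus and ZsG minus cTEC 317 genes passed, against 496 with averaged probe sets, 528 above the percentile, 862 with the floor, 660 with the offset, 37 with array weights, 536 over all probe sets and 0 in the fit of 6 arrays (2704 unadjusted). With 1 array left out these counts ranged over 0 to 304, 0 to 230 and 0 to 735. The low ends came without a ZsG minus cTEC or ZsG minus mTEC array. They were 0 without any 1 of these 6 in the first comparison, and in the last 0 without ZsG minus cTEC replicate 1 or 2 and 23 without replicate 3.

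Of the 9 genes, between ZsG minus mTEC and ZsG minus cTEC, 1 passed with the percentile filter, floor, offset, quantile normalization or fit of 6 arrays, and 2 with array weights. For ZsG plus against ZsG minus mTEC 0 passed with averaged probe sets, quantile normalization, centring, the fit of 6 arrays or array weights (from 1 to 3 unadjusted). For ZsG plus against ZsG minus cTEC, which chose Upk3b, the counts are a description: 1 gene was past the threshold, 3 with averaged probe sets and 0 in the fit of 6 arrays (2 unadjusted). With 1 array left out the ranges were 0 to 1, 0 to 1 and 0 to 2. Wt1 was not tested under the percentile filter.

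With the replicate block 0, 0 and 16 genes passed in the 3 comparisons, in the order above (2172, 2320 and 3278 unadjusted), and 0, 0 and 1 of the 9 genes. The replicate numbers share no stated source: deviations from group means of the 9 same-numbered pairs correlated between -0.015 and 0.013, those of the 18 other pairs between -0.022 and 0.011, and an array's best match in another group had its own number in 9 of 18 cases. ZsG plus readings under the bacterial controls limit the size of the differences of Upk3b.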
